A study of Mus musculus with 11 samples.

Results

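The genes described here are 8 imprinted genes of the mouse, Dlk1, Igf2r, Grb10, Gnas, Peg3, Snrpn, Mest and Impact, followed through male germ cell development. They were taken by symbol from the 20265 nuclear genes of a single-cell UMI table, and all 8 had a row. Values from these same cells had been seen when the 8 genes were chosen. Their levels, differences and counts past a threshold are therefore given below as a description without p-values. Live cells positive for the Dazl-GFP reporter, which marks germ cells, were sorted singly into plate wells from the adult testes of 3 untreated mice and sequenced by SORT-Seq, a 3' end method in which each captured RNA molecule carries a unique molecular identifier (UMI). Mouse 1 gave 8 libraries by CEL-seq version 1, and mice 2 and 3 gave 1 and 2 libraries by version 2, so protocol and animal cannot be told apart. All groups compared are stages of development within these reporter mice, and the replicate is the mouse (n = 3). Which parental copy the RNA came from was not measured.

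Imprinted genes are transcribed mainly from the maternal or the paternal copy, depending on DNA methylation laid down in the germ line of the parent. In the male germ line the old marks are erased before birth and paternal marks are set before the spermatogonia of the adult arise, so that adult male germ cells pass through mitosis and meiosis with paternal marks on both copies. Dlk1, Peg3, Snrpn, Mest and Impact are known as paternally expressed genes, Igf2r and Grb10 as maternally expressed genes in most tissues, and Gnas as a locus whose several start sites differ in the copy they use.

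Of 1920 wells, 1448 held at least 1000 UMIs and were kept as cells, 545 from mouse 1, 321 from mouse 2 and 582 from mouse 3. Clusters of these cells were ordered from spermatogonia to late pachytene, with genes of the odd-numbered autosomes only and without any imprinted gene, and 1242 cells fell into 12 stages. Stage 1 was undifferentiated spermatogonia-like (68 cells), stages 2 and 3 differentiating spermatogonia-like (124 and 109), stage 4 preleptotene-like (113), stages 6 to 9 leptotene/zygotene-like (54, 83, 165 and 68) and stages 10 to 12 pachytene-like (156, 138 and 82). Stage 5 (82 cells), led by the meiotic entry gene Stra8, met the naming rule for no cell type. Its best class was preleptotene too. The preleptotene markers summed to 7262 UMIs per 1000000 at stage 5 (mean of 3 mice), beside 3034 at stage 4 and 6835 at stage 6. UMIs were summed per mouse and stage, which gave 36 sums of 10 to 80 cells and of 112276 to 5127727 UMIs, and levels are UMIs per 1000000 UMIs of a sum (counts per 1000000, CPM). A 3' method counts 1 tag per molecule whichever start site was used, so transcripts of different promoters that share a 3' end are counted together.

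Levels of RNA per cell differed widely between stages. Relative to the ERCC spike-ins, synthetic RNAs added to each well, total UMIs fell from stage 1 to 0.266 of its value at stage 7 and rose to 3.31 times its value at stage 12. A level in CPM is therefore a share of the cell's RNA, and values per spike-in are given beside it for Grb10, Igf2r, Gnas and Impact, and for the comparison of the first and last stage. Differences between other stages are in CPM, and their direction per spike-in can differ.

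The 8 genes lie on 7 chromosomes of GRCm38. Dlk1 spans chr12:109452823-109463336 on the plus strand, Igf2r chr17:12682406-12769664 on the minus strand, Grb10 chr11:11930508-12038683 on the minus strand and Gnas chr2:174284320-174346744 on the plus strand. Peg3 spans chr7:6703892-6730431 and Snrpn chr7:59982495-60140219, both on the minus strand, and Mest spans chr6:30723547-30748465 on the plus strand. Imprint marks sit on CpG dinucleotides, and the CpG content of the DNA just before the transcript starts differed between members. The 90 bases before the RefSeq start (GRCm38.p6) are shown for the pair of genes that fell after the spermatogonial stages, Dlk1 (chr12:109452733-109452822) and Mest (chr6:30737960-30738049), and the pair that rose again in meiosis, Grb10 (chr11:12037421-12037510) and Gnas (chr2:174329916-174330005, 1 of its 4 listed starts). Where a gene had several starts, the one whose window held the most CpG was taken. They read 5′ to 3′ on the gene's strand, with CpG in capitals.
Dlk1: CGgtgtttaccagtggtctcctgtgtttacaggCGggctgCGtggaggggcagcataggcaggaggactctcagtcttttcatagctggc
Mest: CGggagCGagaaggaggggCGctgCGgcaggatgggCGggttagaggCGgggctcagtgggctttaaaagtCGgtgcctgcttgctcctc
Grb10: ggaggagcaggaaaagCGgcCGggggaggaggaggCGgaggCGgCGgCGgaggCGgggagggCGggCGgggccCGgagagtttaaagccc
Gnas: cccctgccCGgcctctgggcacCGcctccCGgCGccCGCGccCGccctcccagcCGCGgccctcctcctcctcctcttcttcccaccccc

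The stretches held 3 CpG for Dlk1, 7 for Mest, 10 for Grb10 and 9 for Gnas. Dlk1 had a single start, while the others were picked for high CpG among several, so these counts cannot be ranked between genes. Over the whole RefSeq windows of 300 bases (250 before to 50 after a start), which 7 members had, the 16 windows held from 2 to 45 CpG against a median of 7 over all 32851 windows. The Dlk1 window and the Grb10 window not shown both held 9. The window of Igf2r, which also fell by stage 12, held 34. A link between CpG content and expression was not tested. The letters TGCCGC, the core bound by ZFP57, a zinc finger protein that keeps imprint methylation in the embryo, were searched on both strands. They occurred in 4 of the 16 windows, belonging to Mest (2 overlapping windows), Snrpn and Grb10, and in 11.6% of all windows. The first match before the Mest start, here as its reverse complement GCGGCA in capitals, lies in chr6:30737800-30737889.
Mest: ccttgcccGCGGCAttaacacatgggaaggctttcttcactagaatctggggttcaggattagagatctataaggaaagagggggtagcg

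Dlk1 encodes a membrane protein with EGF-like repeats that is related to the ligands of Notch receptors. It was high in the first 2 stages and low afterwards. At stage 1 it had 94.5, 96.1 and 116.0 CPM in mice 1, 2 and 3, and at stage 2 it had 80.0, 125.1 and 130.0. At stage 3 the values were 16.8, 7.94 and 17.5. The ranges of stages 1 and 2 overlapped, and neither overlapped with that of stage 3. From stage 4 to stage 12 no mouse exceeded 18.9 CPM, and the ranges of neighbours in the order of levels all overlapped. Within this low phase stages 11 and 12 did not overlap. Dlk1 had 0.999, 0.736 and 0.975 CPM in mice 1, 2 and 3 at stage 11 and 2.47, 6.12 and 2.19 at stage 12. The UMIs were 9 and 24, and the fitted log2 difference was 1.55 ± 0.58 (SE). Dlk1 took no part in the staging, and it was among the 10 leading genes of stage 2. The fitted difference between stages 3 and 2 was -2.83 ± 0.33 on the log2 scale (SE, edgeR, n = 3 mice), and that between stages 12 and 1 was -4.85 ± 0.35.

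Within the early stages Dlk1 was spread over most cells. It had a UMI in 52 of 68 cells of stage 1 and in 97 of 124 cells of stage 2, at median depths of 25180 and 27820 UMIs per cell. The single highest cell held 28 of the 429 Dlk1 UMIs of stage 2, and the top 13 cells together held 37.5% of them. With every cell thinned to 3000 UMIs, the share with a Dlk1 UMI in the first 3 stages was 21.6% ± 4.5 (SD, n = 3 mice), 23.7% ± 9.9 and 4.86% ± 6.05. At stage 12, where cells were deepest, the unthinned share was 25.2% ± 4.1, although the level was 3.59 ± 2.19 CPM.

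Markers of other testis cells were measured beside Dlk1, since Dlk1 is also known from stromal and Leydig cells. Of 8 Leydig cell markers, 1 was above 0 at stage 1, with a summed level of 0 to 14.4 CPM over the mice. At stage 2, 2 were above 0, with a summed level of 10.8 to 14.7. Star had 18 UMIs at stage 1 and 46 at stage 2, while Cyp11a1, Cyp17a1, Insl3 and Hsd3b1 were at 0 in both. Of 7 peritubular and stromal markers, 5 were above 0 in each of both stages. Their summed level was 66.7 to 78.3 at stage 1 and 5.52 to 11.4 at stage 2. Whether RNA of other testis cells contributed to the Dlk1 level was not tested. Of 10 Sertoli cell markers, 9 were above 0 in each of both stages, with sums of 306.5 to 340.5 and 90.3 to 178.5. Amh was at 0, while Clu had 102 and 69 UMIs in stages 1 and 2, Wt1 61 and 35, and Amhr2 30 and 12.

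**Figure D1:**
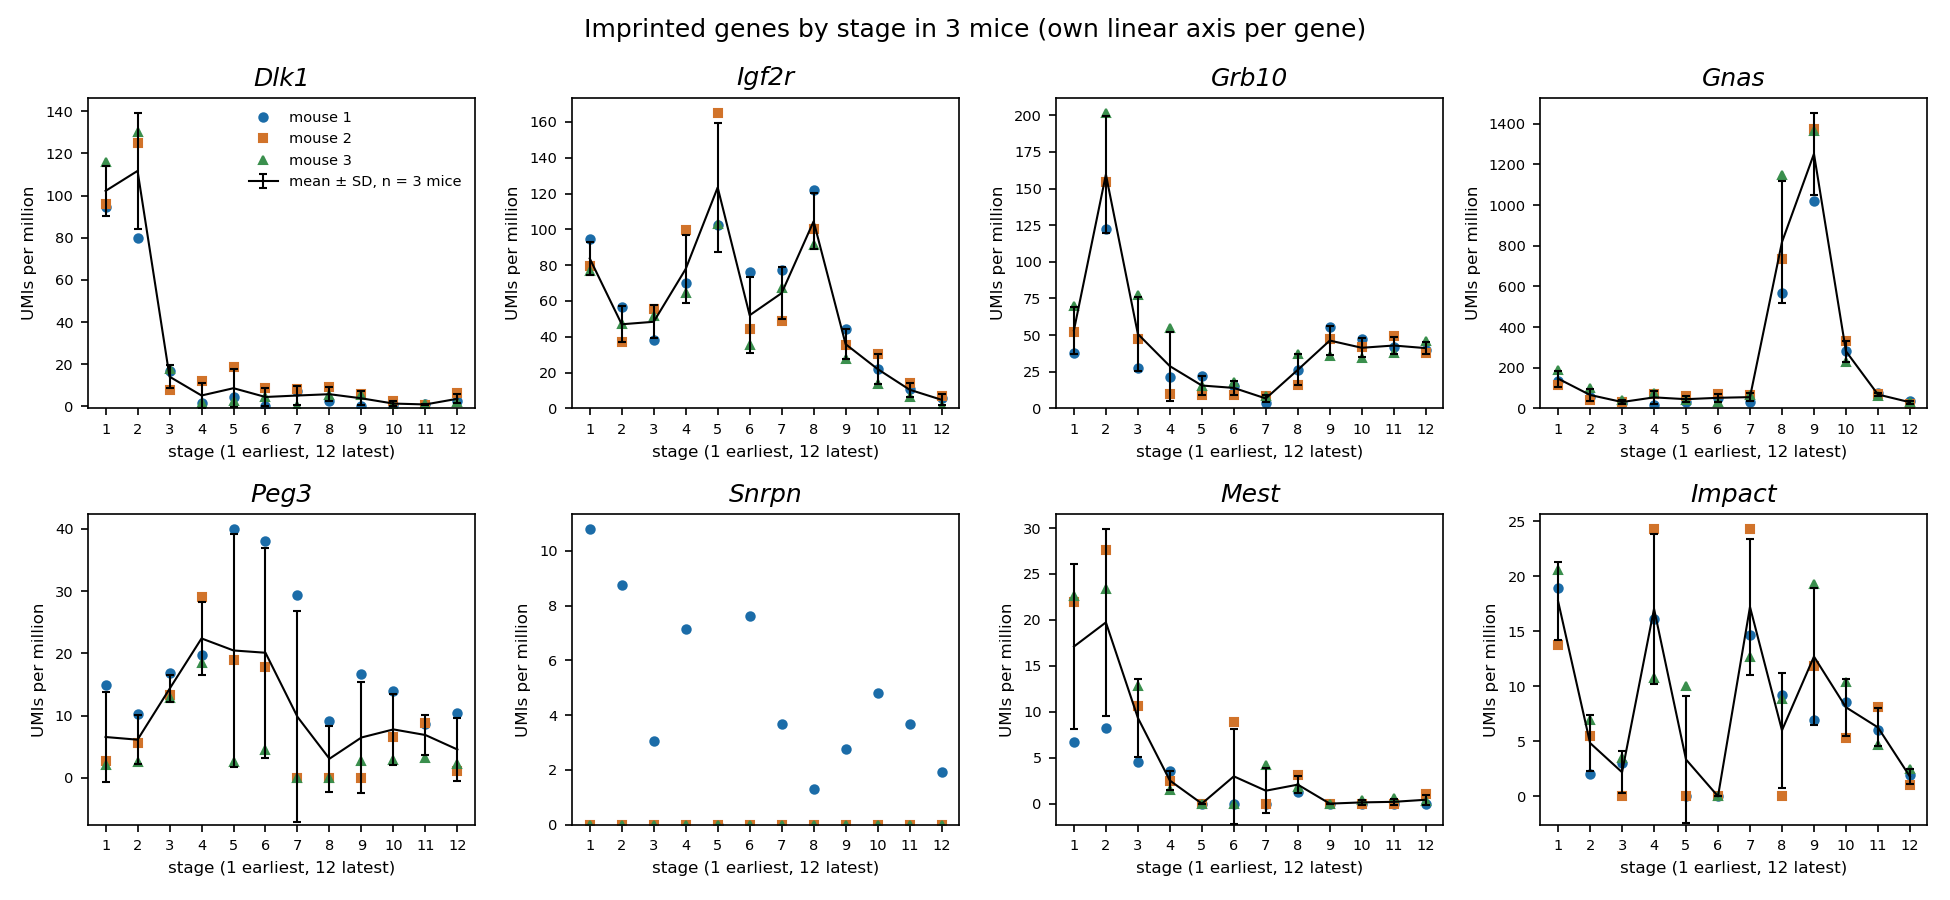
Levels of the 8 imprinted genes (vertical axes, CPM, linear and separate for each gene) over the 12 stages (horizontal axes); points are the 3 mice, and lines with bars are the mean ± SD (n = 3), left out for Snrpn, which had UMIs in mouse 1 only. Dlk1 and Mest are highest at stages 1 and 2, Grb10 peaks at stage 2, Igf2r has several maxima before it falls, and Gnas rises from 55.1 at stage 7 to 1252 at stage 9.

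Mest encodes a protein of the alpha/beta hydrolase family and is a marker of mesoderm in the embryo. It had 136 UMIs in all stages, and its course was close to that of Dlk1. It had 6.75, 22.0 and 22.6 CPM in mice 1, 2 and 3 at stage 1, and 8.26, 27.6 and 23.3 at stage 2. At stage 3 it had 4.58, 10.6 and 12.9. Mouse 1 was the lowest of the 3 mice at each of these stages, and the ranges of the 3 stages overlapped. Each stage from stage 5 to stage 12 held 3 UMIs or fewer over all mice, with none in stages 5 and 9. At stage 12 the 3 mice together held 2 UMIs against 35 at stage 1. With UMIs pooled over the mice, the ratio of levels was 73.5, with an exact 95% interval of 18.9 to 630.7 that covers counting error only. The means over mice were 17.1 ± 9.0 (SD) and 0.421 ± 0.532 CPM, and the fitted log2 difference was -5.25 ± 0.70 (SE).

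The stage means of Dlk1 and Mest, as log2(CPM + 1), correlated with r = 0.90 over the 12 stages, the highest value among the 28 pairs of members. The points share libraries and depth, and no p-value is attached. In single cells of stage 2, 39 of 124 cells had UMIs of both genes, 58 of Dlk1 alone and 6 of Mest alone. By the same measure over the 11044 genes tested, the genes most like Dlk1 were Podxl (r = 0.958), Vegfa and Trim71 (both 0.954), and those most like Mest were Polr3e (0.976), Grb7 and Hnrnpa1 (both 0.975). The annotated 3' ends of Mest and its neighbour Copg2 overlap by 912 exonic bases on opposite strands. The use of strand in counting is not given in the sources used here, so reads there cannot be told apart. Copg2, which encodes a coat protein of the Golgi, had 5.42 ± 6.18 (SD) CPM at stage 1 and 6.26 ± 2.44 at stage 12 and did not pass the test.

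Grb10 encodes an adaptor that binds the insulin and IGF1 receptors and dampens their signalling. It had 2 phases of expression, parted by a minimum in early meiosis. At stage 1 it had 37.8, 52.2 and 69.8 CPM in mice 1, 2 and 3, and at stage 2 it had 122.3, 154.6 and 201.9. The stage 2 range lay above that of every other stage. At stage 7 the values were 3.67, 8.09 and 8.44, from 4 UMIs in 83 cells.

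From that minimum Grb10 rose to 26.2, 15.7 and 37.0 CPM at stage 8 and to 55.6, 47.4 and 35.8 at stage 9. In CPM it then stayed near that level, with 39.8, 37.7 and 45.8 at stage 12. The ranges of stages 9, 10, 11 and 12 overlapped with each neighbour in the order of levels. The fitted log2 difference was 1.60 ± 0.23 (SE) between stages 2 and 1, -1.62 ± 0.24 between stages 3 and 2, and 2.25 ± 0.70 between stages 8 and 7. Between stages 12 and 1 it was -0.11 ± 0.25, lower in 2 mice and higher in 1.

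Per spike-in RNA the second phase of Grb10 came nearer to the first, though it stayed below it in each mouse. Relative to stage 1 of the same mouse, Grb10 UMIs per ERCC UMI were 3.90, 2.57 and 3.37 at stage 2 and 3.22, 1.96 and 2.86 at stage 12. At stage 9 they were 1.18, 0.63 and 0.392, so per spike-in Grb10 was higher at stage 12 than at stage 9 in each mouse. On that scale the log2 difference between stages 12 and 1 was 1.43 ± 0.28. Grb10 was found in 109 of 124 cells of stage 2, 4 of 83 cells of stage 7 and 77 of 82 cells of stage 12, at median depths of 27820, 6643 and 103000 UMIs per cell. Thinned to 3000 UMIs per cell, the shares were 39.7% ± 2.6 (SD), 1.28% ± 2.22 and 11.8% ± 10.6. In stage 2, 89 of 124 cells held UMIs of both Grb10 and Dlk1. The genes whose stage means were most like those of Grb10 were Begain (r = 0.912), H2-Ke2 and Mlst8 (both 0.893).

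Igf2r encodes the receptor that takes up IGF2 for degradation and carries mannose 6-phosphate-tagged enzymes to lysosomes. In CPM its course had 3 maxima before it fell in pachytene. The first was at stage 1, with 94.5, 79.6 and 77.0 CPM in mice 1, 2 and 3, and the second at stage 5, with 102.2, 165.2 and 102.8. The last, at stage 8, reached 121.9, 100.2 and 91.5. Between them lay stage 2, with 56.8, 36.8 and 47.3, and stage 6, with 76.1, 44.5 and 35.4 from 23 UMIs.

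In CPM, in all 3 mice stage 2 was below stage 1, stage 5 above stage 2, stage 6 below stage 5, and stage 8 above stage 6. The ranges of stages 5, 8, 1 and 4 overlapped in the order of levels, so which maximum was the highest did not exceed the spread between mice: it was stage 8 in mouse 1 and stage 5 in mice 2 and 3. The fitted log2 differences were 0.72 ± 0.26 (SE) between stages 5 and 4, -1.27 ± 0.35 between stages 6 and 5, and 0.77 ± 0.29 between stages 8 and 7. From stage 8 each step to stage 12 was negative on this scale, beginning with -1.53 ± 0.28 between stages 9 and 8. At stage 12 the values were 5.76, 7.14 and 1.46, and the difference from stage 1 was -4.15 ± 0.29.

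Per ERCC UMI the course of Igf2r differed. Relative to stage 1 of the same mouse it was at 0.34, 0.726 and 0.517 in mice 1, 2 and 3 at stage 5 and at 0.535, 0.485 and 0.482 at stage 8, below stage 1 in each mouse. Stage 5 was below stage 2 (0.723 and 0.715) in mice 1 and 3, and in mouse 1 it was no maximum (0.347 at stage 4). The level at stage 8 remained above stages 6 and 7 in all 3 mice. Stage 10 (0.394, 0.465 and 0.391) was above stage 9 (0.379, 0.309 and 0.273) in all 3 mice, unlike in CPM. Stage 12 (0.187, 0.243 and 0.0827) was the lowest stage in mice 1 and 3.

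The genes most like Igf2r by stage means were Cadm1 and Atp6ap1 (both r = 0.946) and Ubr2 (0.944). The antisense RNA Airn, which silences Igf2r on the paternal copy in somatic tissues, overlaps Igf2r by 28354 bp, with no exonic overlap in the annotation. Airn did not pass the filter on low counts. It had 5.44 ± 3.55 (SD) CPM at stage 1 and 6.88 ± 5.08 at stage 12, and in the absence of a stated strand its reads within Igf2r introns cannot be told apart from Igf2r pre-mRNA.

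Gnas encodes the alpha subunit of the stimulatory G protein, which couples receptors to adenylyl cyclase, and further proteins from other starts. It showed a peak of expression at the end of the leptotene/zygotene-like stages, after a long low phase. At stage 7 it had 33.0, 64.8 and 67.5 CPM in mice 1, 2 and 3. At stage 8 it had 568.8, 735.6 and 1149, and at stage 9 it had 1018, 1376 and 1363. The stage 8 and 9 ranges overlapped with each other and with no other stage.

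The peak was followed by a fall over 3 steps. Gnas had 284.3, 330.4 and 227.9 CPM at stage 10, then 73.6, 69.2 and 61.6 at the next stage, and ended with 37.6, 23.5 and 28.8. In stage 1, before the low phase, it had 132.3, 115.3 and 190.9. In CPM this range lay between those of stages 10 and 11 without overlap. The fitted log2 differences were 4.06 ± 0.34 (SE) between stages 8 and 7, 0.60 ± 0.22 between stages 9 and 8, -2.09 ± 0.22 between stages 10 and 9 and -2.0 ± 0.27 between stages 12 and 1. Gnas took no part in the staging either, and it was the first of the 10 leading genes of stage 9.

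The rise and the fall were also seen inside stages. When the cells of stage 8 were split in each mouse at their median pseudotime, the earlier cells had 352.1, 718.6 and 633.5 Gnas CPM in mice 1, 2 and 3. The later cells had 667.3, 748.7 and 1376, higher in all 3 mice, by little in mouse 2. In stage 10 the earlier cells had 521.5, 616.9 and 385.6 and the later cells 148.1, 179.1 and 132.9. In stage 9 the order of earlier and later cells differed between mice, with 1082 and 1004 in mouse 1, 974.0 and 1477 in mouse 2, and 1628 and 1071 in mouse 3.

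**Figure D2:**
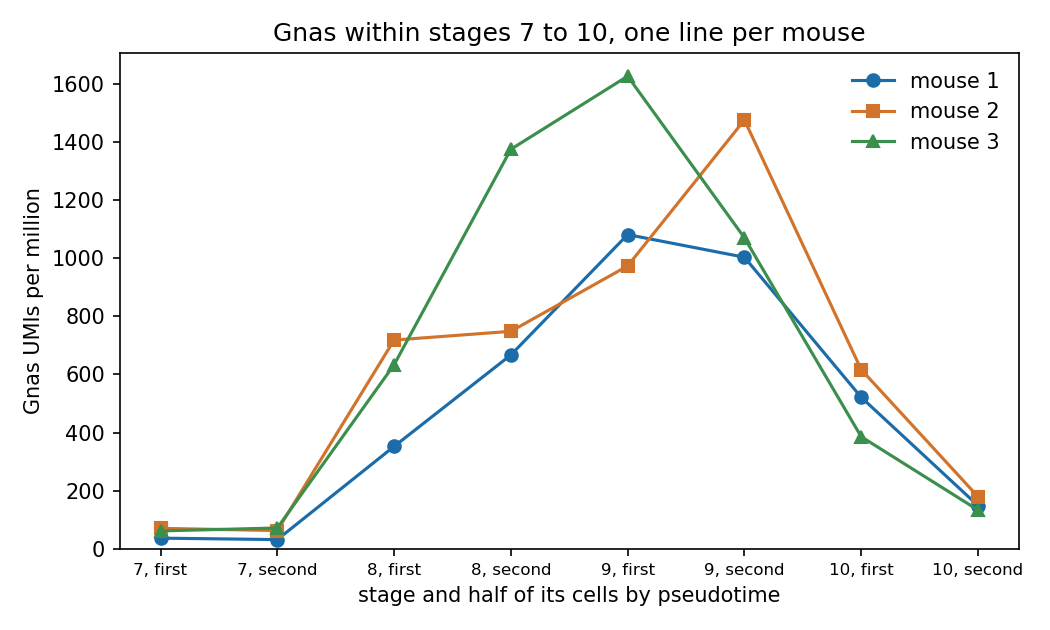
Gnas level (vertical axis, CPM, linear) in stages 7 to 10, each divided at the median pseudotime of its cells in that mouse (horizontal axis); each line is a mouse. The rise begins between stages 7 and 8 in all 3 mice, and the fall within stage 10 lies between 521.5 and 148.1 in mouse 1, 616.9 and 179.1 in mouse 2, and 385.6 and 132.9 in mouse 3.

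The Gnas peak was carried by nearly all cells of stage 9. A Gnas UMI was found in 24 of 83 cells of stage 7, 128 of 165 cells of stage 8, 64 of 68 cells of stage 9 and 146 of 156 cells of stage 10, with median depths of 6643, 7404, 14010 and 36380 UMIs per cell. Thinned to 3000 UMIs per cell, which left out 17, 23, 8 and 0 of these cells, the shares were 12.7% ± 5.2 (SD, n = 3 mice), 72.2% ± 11.4, 92.3% ± 10.7 and 52.4% ± 7.5. The highest cell held 87 Gnas UMIs. At stage 12 the unthinned share was 88.0% ± 8.3 and the thinned share 11.2% ± 3.8.

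**Figure D3:**
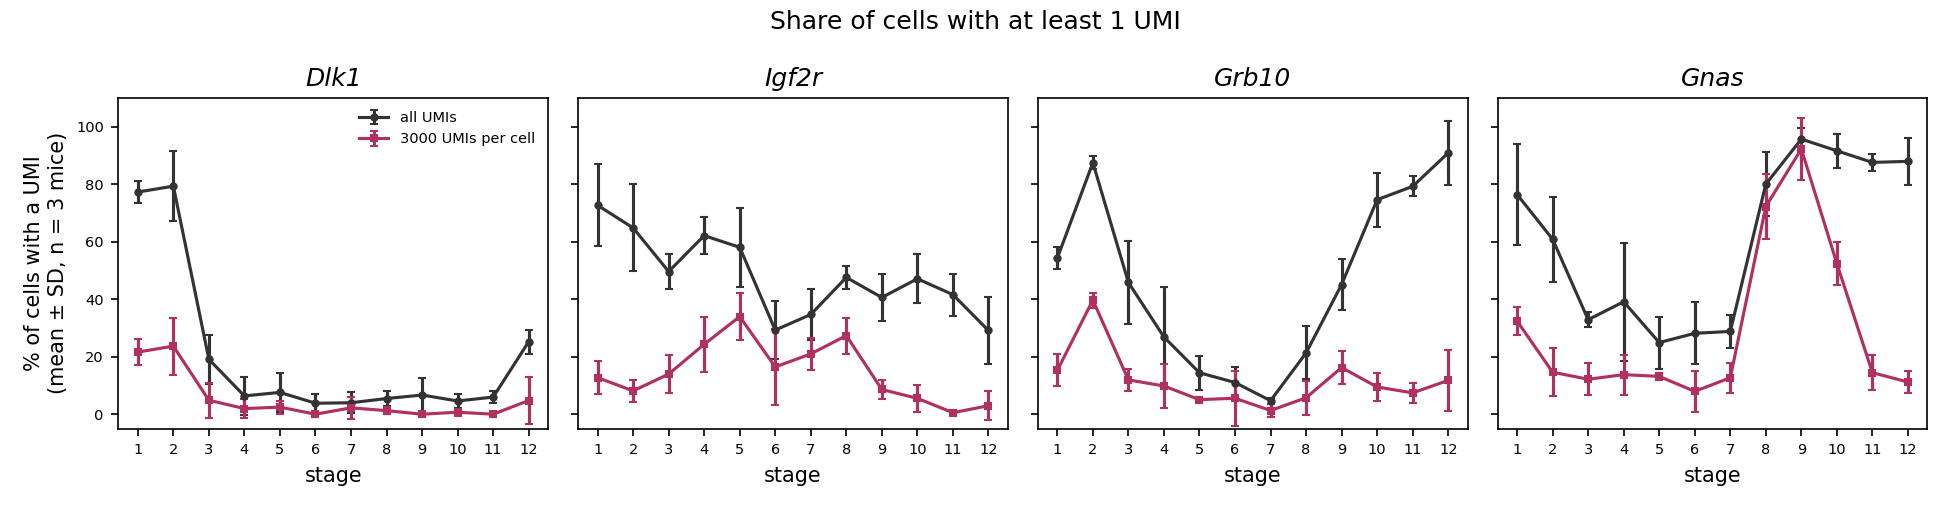
Percent of cells with at least 1 UMI of Dlk1, Igf2r, Grb10 and Gnas (vertical axis, mean ± SD over 3 mice) by stage (horizontal axis), with all UMIs and with each cell thinned to 3000 UMIs. In the late, deeply sequenced stages the 2 curves part, as for Gnas at stage 12 (88.0% against 11.2%), while the peak at stage 9 stands in both (95.7% and 92.3%).

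Per ERCC UMI and relative to stage 1 of the same mouse, Gnas was at 1.79, 2.46 and 2.44 at stage 8. It was at 6.20, 8.26 and 5.46 at stage 9 and at 1.23, 1.37 and 0.9975 at stage 11. Stage 11 was thus above stage 1 in mice 1 and 2 on that scale, unlike in CPM. Of 10 Sertoli cell markers, 9 were above 0 at stage 8 and 8 at stage 9. Their summed level was 330.3 to 447.1 CPM at stage 7, 352.5 to 549.1 at stage 8 and 229.2 to 302.5 at stage 9. Amh had 1 UMI in stages 8 and 9 together, while Clu had 24 and 3 UMIs in these stages and Amhr2 21 and 5. Whether RNA of Sertoli cells contributed to the Gnas level was not tested. The genes most like Gnas by stage means were Mov10l1 (r = 0.966), a helicase of the piRNA pathway, Cggbp1 (0.917) and Gm3833 (0.911). The antisense RNA Nespas overlaps Gnas by 11117 bp, of which 988 are exonic. Nespas rose from 4.75 ± 4.09 (SD) CPM at stage 1 to 16.2 ± 4.6 at stage 12 (log2 difference 1.85 ± 0.51, edgeR adjusted p = 0.00107, higher in 3 of 3 mice), and its highest stage mean was 26.2 ± 12.9, at stage 10. Reads of the shared exonic bases cannot be told apart without strand.

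Peg3, a zinc finger protein, and Impact, an inhibitor of the kinase GCN2 that acts by binding GCN1, had few UMIs (319 and 261 in all stages). Peg3 had 16.8, 13.2 and 12.9 CPM in mice 1, 2 and 3 at stage 3, and 19.7, 29.1 and 18.4 at stage 4. After that the values of the 3 mice differed and rested on few UMIs. Mouse 1 had 40.0 at stage 5 and 38.0 at stage 6 (9 and 5 UMIs), and mouse 2 had 18.9 and 17.8 (4 and 2). Mouse 3 had 2.51 and 4.43 (1 UMI each). Over all wells mouse 1 held 212 Peg3 UMIs, mouse 2 held 45 and mouse 3 held 66. Protocol and animal cannot be told apart there. At stages 7 and 8 mouse 1 had 29.4 and 9.17, and mice 2 and 3 had no Peg3 UMI. Ranges overlapped between all neighbouring stages in the order of levels, and the log2 difference between stages 12 and 1 was -0.23 ± 0.61 (SE), lower in 2 mice and higher in 1. The genes most like Peg3 were Pmf1 (r = 0.931), Hint2 (0.910) and Zfp961 (0.908). The start of Peg3 lies 146 bp from that of Usp29 on the other strand. Usp29, a ubiquitin protease gene, had 9.51 ± 8.87 (SD) CPM at stage 1 and 3.50 ± 4.19 at stage 12 (log2 difference -1.19 ± 0.65, edgeR adjusted p = 0.0953), and it did not pass the test.

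Impact had 18.9, 13.7 and 20.5 CPM at stage 1 and 1.92, 1.02 and 2.44 at stage 12, ranges that did not overlap. The log2 difference was -2.88 ± 0.53 (SE). In between, its means at stages 4, 7 and 9 were 17.0 ± 6.8 (SD), 17.2 ± 6.2 and 12.7 ± 6.2 CPM, with lower means at the stages around them. These 3 stages held only 26, 10 and 14 Impact UMIs. Mice 1, 2 and 3 had 4, 3 and 3 of them at stage 7, and mouse 2 had 2 at stage 9. Per ERCC UMI, relative to stage 1, stage 9 was at 0.296, 0.598 and 0.717 and stage 10 at 0.768, 0.469 and 1.12, so that stage 9 was below stage 10 in mice 1 and 3. At stage 6 no Impact UMI was found, which allows a level of up to 6.39 CPM over the 3 mice. The genes most like Impact were Kctd2 (r = 0.880), Cast and Ppie (both 0.843).

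Snrpn, which encodes the splicing protein SmN, was found in mouse 1 only, with 72 UMIs, and had 0 in mice 2 and 3. It did not pass the filter on low counts and enters no comparison. Its highest level in mouse 1 was 10.8 CPM at stage 1. Snurf, which shares the start region of Snrpn and overlaps it by 9601 bp on the same strand, had 79 UMIs in mouse 1 and likewise 0 in mice 2 and 3. In all, 233 of the 14007 genes with at least 20 UMIs in mouse 1 had 0 UMIs in both other mice, and 4 of the 13973 genes with at least 20 UMIs in mice 2 and 3 together had 0 in mouse 1. Protocol, animal and a possible difference in the annotation used for each mouse cannot be told apart, and a level of 0 for Snrpn in mice 2 and 3 is therefore given as a count and not as absence of the RNA.

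Between the ends of the series, stage 12 against stage 1, 7 members passed the filter. By the threshold used for other genes (edgeR quasi-likelihood test, Benjamini-Hochberg adjusted p under 0.05 over 11044 genes), 5 of them were lower (Dlk1, Igf2r, Gnas, Mest and Impact) and 0 higher. Over all genes tested, 40.4% were called lower and 34.9% higher (75.3% in either direction). The members were chosen on these cells, so nothing is read from their count. With sums scaled to ERCC spike-ins, the median over all genes moved by 1.51 on the log2 scale, and 63.4% of genes were called higher and 19.4% lower. On that scale Dlk1 (-3.34 ± 0.39), Igf2r (-2.63 ± 0.34), Mest (-4.03 ± 0.84), Impact (-1.37 ± 0.56) and Gnas (-0.48 ± 0.25) still had negative differences, while Grb10 (1.43 ± 0.28) and Peg3 (1.26 ± 0.60) had positive ones.

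**Figure D4:**
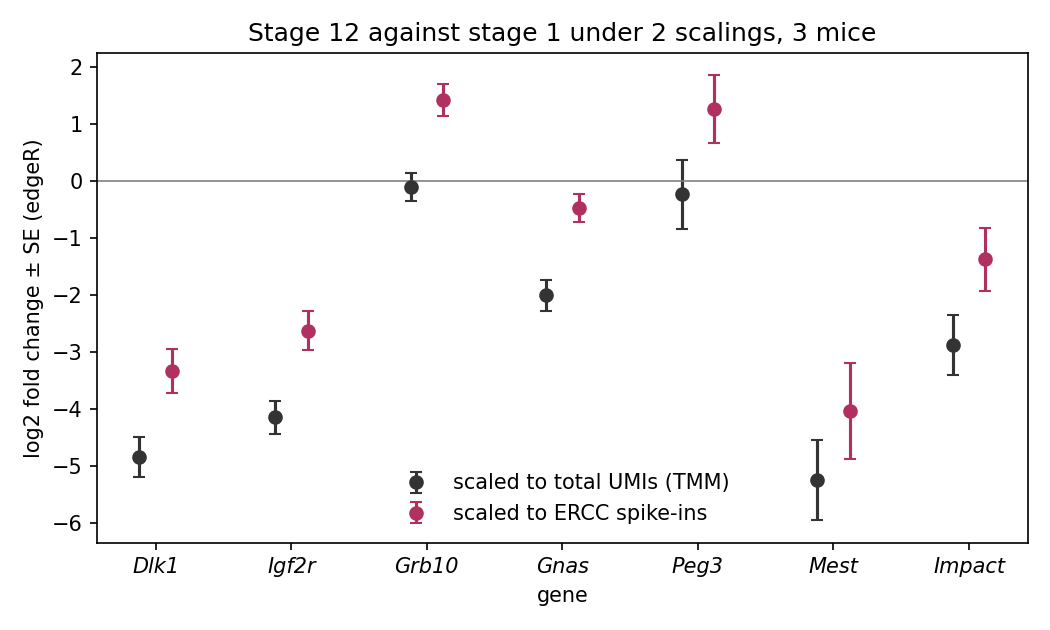
Fitted log2 difference between stage 12 and stage 1 (vertical axis, ± SE, edgeR, 3 mice) for the 7 members that passed the filter (horizontal axis), scaled to total UMIs by TMM and to ERCC spike-ins. Dlk1, Igf2r, Mest and Impact lie below 0 under both scalings, Gnas moves from -2.0 to -0.48, and Grb10 and Peg3 change sign.

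At the earlier step, stage 2 against stage 1, chosen after its values were seen, Grb10 was the 1 member higher by that threshold, and 3 were lower, Igf2r, Gnas and Impact, against 13.5% and 14.0% of all genes (27.5% in either direction). At the step from stage 7 to stage 8, also chosen after its values were seen, Gnas and Grb10 were higher and 0 members lower, against 9.43% and 5.22% of all genes (14.7% in either direction). Members and steps were both chosen on these cells, so nothing is read from these counts either.

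Of 54 other imprinted genes in a list of known ones, 53 had a row and 26 passed the filter. This list and the lists of imprint and partner genes below were chosen with earlier results of these data known. Their p-values and counts are therefore a description and not independent tests. Between stages 1 and 12, 9 rose and 11 fell (34.6% and 42.3% of the 26), beside 34.9% and 40.4% of all genes. Their median log2 difference was 0.19, against -0.13 over all genes. Among the 13 tested paternally expressed genes 4 rose and 5 fell, and among the 13 maternally expressed genes 5 rose and 6 fell. With ERCC scaling the 26 genes gave 14 higher and 7 lower, beside 63.4% and 19.4% of all genes.

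The largest falls among genes outside the members' own domains were those of Inpp5f (-5.40 ± 0.33, a phosphoinositide phosphatase), the noncoding RNA H19 (-5.30 ± 0.36), Ascl2 (-4.69 ± 0.65, a transcription factor), Cdkn1c (-3.92 ± 0.42, an inhibitor of the cell cycle), Nnat (-2.88 ± 0.66) and Igf2 (-2.69 ± 0.28). All 6 were lower at stage 12 in 3 of 3 mice, with edgeR adjusted p-values between 1.75e-21 and 9.5e-05. H19 went from 104.0 ± 48.5 (SD) CPM to 1.76 ± 1.22. Igf2, the growth factor cleared by the Igf2r product, went from 79.5 ± 22.9 to 11.5 ± 6.5. Its highest stage mean in CPM was 94.1 ± 3.8, at stage 5, where Igf2r had its highest mean in CPM too. In mouse 1, however, Igf2r was highest at stage 8. Per ERCC UMI, Igf2r at stage 5 was below stage 1 in each mouse, and total UMIs were at 0.349 of stage 1. The largest rises were those of Fam50b (4.03 ± 0.28), Trappc9 (1.87 ± 0.26), Commd1 (1.74 ± 0.17), Sgce (1.66 ± 0.63) and H13 (0.77 ± 0.18), each higher in 3 of 3 mice. Fam50b, an intronless gene, went from 8.52 ± 8.73 CPM to 145.6 ± 28.7. The call of Sgce ended without mouse 2 (edgeR adjusted p = 0.110) and with sums of at least 20 cells (0.0735), that of H13 with reads (0.184), and that of Nnat with ERCC scaling (log2 difference -1.45, 0.055).

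**Figure D5:**
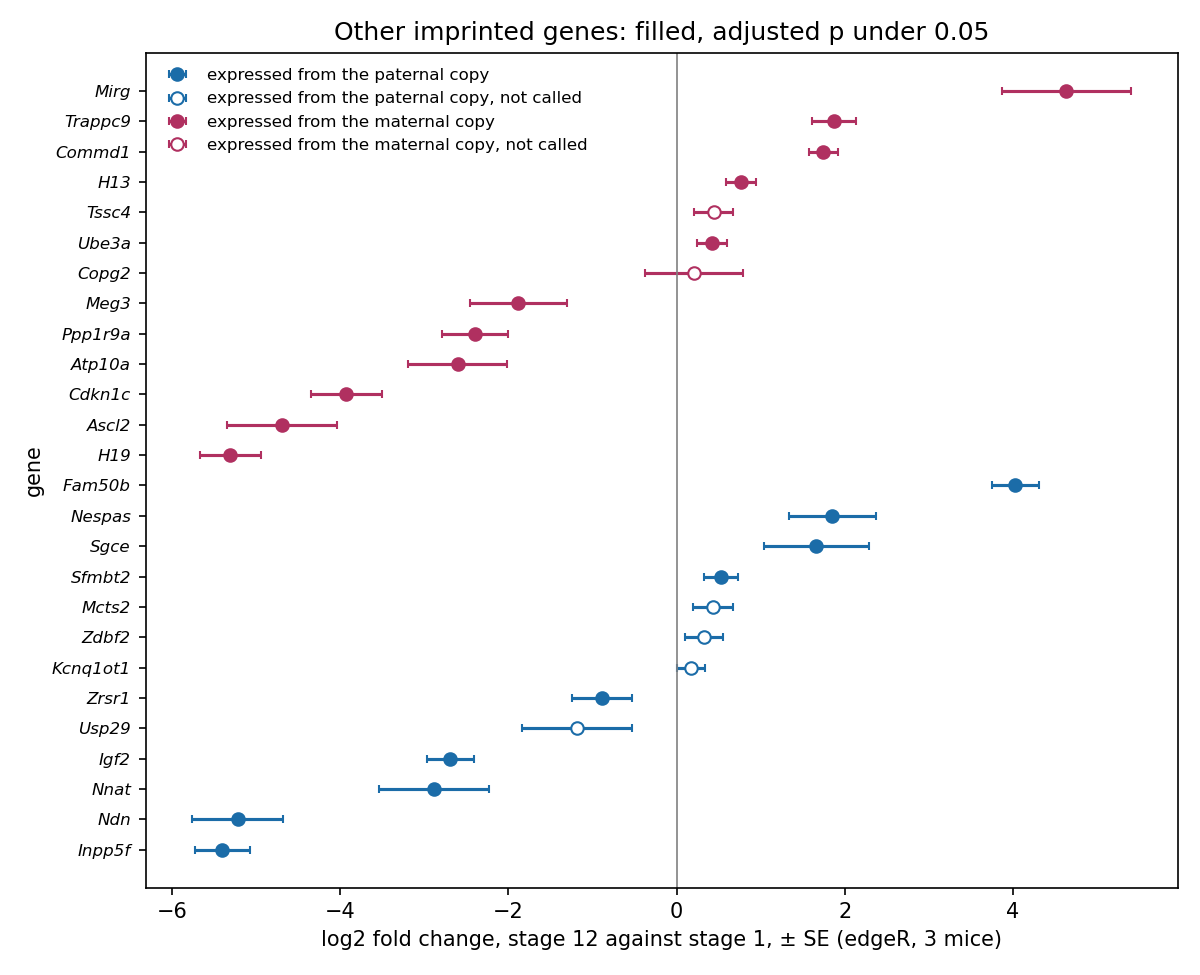
Log2 difference between stage 12 and stage 1 (horizontal axis, ± SE, edgeR, 3 mice) for the 26 other imprinted genes that passed the filter (vertical axis), by the parental copy known to be expressed; filled points passed the test. Both classes spread over both directions, from -5.40 for Inpp5f to 4.63 for Mirg.

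Imprinted neighbours of the members did not all move as the members did. In the Dlk1 domain of chromosome 12 the noncoding RNA Meg3 fell from 13.9 ± 7.9 (SD) CPM to 3.03 ± 2.92 (log2 difference -1.88 ± 0.58, edgeR adjusted p = 0.00289). Mirg, a host RNA of microRNAs in the same domain, rose from 1.37 ± 1.37 to 22.2 ± 4.8 (4.63 ± 0.77, adjusted p = 3.05e-07 by edgeR, higher in 3 of 3 mice). Dlk1, Meg3 and Mirg thus had differences of -4.85, -1.88 and 4.63. Without mouse 3, Mirg did not pass the filter and was not tested. In the Snrpn domain of chromosome 7, Ndn fell from 42.9 ± 12.2 to 0.711 ± 0.845 (-5.21 ± 0.54), Atp10a fell (-2.60 ± 0.59), and the ubiquitin ligase gene Ube3a rose from 103.5 ± 33.3 to 120.5 ± 21.8 (0.42 ± 0.18, adjusted p = 0.0264 by edgeR, higher in 2 of 3 mice).

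Several of these calls did not hold under other settings. The call of Ube3a ended in 6 of 17 alternatives (adjusted p from 0.0923 to 0.167), which were RLE factors, DESeq2, no mouse block, sums of at least 20 cells, and leaving out mouse 2 or mouse 3 (both with edgeR). The call of Meg3 ended in 4 (0.0557 to 0.508), which were no mouse block, reads, larger sums and ERCC scaling, where its log2 difference was -0.41. The call of Atp10a ended in 4 (0.0609 to 0.203), which were reads, no alignment, leaving out mouse 1, and ERCC scaling (-1.12).

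Between stages 7 and 8, where Gnas and Grb10 rose, 2 of the 26 other imprinted genes rose and 0 fell by edgeR (3 of the 26 had an unadjusted p under 0.05). The share that rose was 7.69%, beside 9.43% of all genes. The pair, named after its values were seen, was Sgce, from 21.4 to 79.5 CPM (2.03 ± 0.46, edgeR adjusted p = 0.00107), and Ppp1r9a, from 6.37 to 59.0 (3.33 ± 0.64, adjusted p = 0.000106 by edgeR), each higher in 3 of 3 mice. Sgce lies at chr6:4674350-4747207 and Ppp1r9a at chr6:4902917-5165661.

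Of 18 genes that set, keep or remove imprints, 15 passed the filter. Between stages 1 and 12, 4 rose and 6 fell (26.7% and 40.0% of the 15, beside 34.9% and 40.4% of all genes), with a median log2 difference of -0.52 against -0.13 over all genes. With ERCC scaling 6 were higher and 4 lower, beside 63.4% and 19.4% of all genes. The largest falls were those of the histone demethylase gene Kdm1b (-6.27 ± 0.38), the de novo methyltransferase genes Dnmt3a (-5.73 ± 0.31) and Dnmt3b (-2.81 ± 0.25) and the 5-methylcytosine oxidase gene Tet3 (-5.03 ± 0.38), each lower in 3 of 3 mice with edgeR adjusted p-values between 1.71e-21 and 1.27e-14. Dnmt3a had 286.4 ± 14.3 (SD) CPM at stage 1 and 4.27 ± 0.31 at stage 12. The rises were smaller, Zfp445 (0.99 ± 0.17), Trim28 (0.69 ± 0.12), Yy1 (0.69 ± 0.14) and Uhrf1 (0.65 ± 0.17), each higher in 3 of 3 mice. Zfp445 and Trim28 encode a zinc finger protein and its corepressor that bind methylated imprinting regions. Zfp57 had 20 UMIs in all stages and did not pass the filter.

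Of 30 genes whose products bind the members' products or act beside them in signalling and splicing, 24 passed the filter, and 5 rose and 16 fell between stages 1 and 12 (20.8% and 66.7% of the 24, beside 34.9% and 40.4% of all genes), with a median log2 difference of -0.95. With ERCC scaling 12 were higher and 6 lower, beside 63.4% and 19.4% of all genes. Among receptors, Igf1r, whose signalling GRB10 dampens, fell from 314.3 ± 74.5 (SD) CPM to 5.89 ± 2.85 (log2 difference -5.65 ± 0.22, edgeR adjusted p = 1.29e-29). Notch1, the receptor of the pathway that DLK1 is related to, had 44 UMIs at stage 1 and none in the latest cells. Against a floor of 3 counts over the 3 mice, Notch1 was at least 61.6-fold lower there (adjusted p = 2.27e-10 by edgeR). Igf2bp1 and Igf2bp2, which encode proteins that bind Igf2 mRNA, fell by 6.94 ± 0.36 and 3.90 ± 0.45 on the log2 scale. The rises that held in 3 of 3 mice were those of the ubiquitin ligase gene Siah1a (2.42 ± 0.24), whose product binds PEG3, the gene of a catalytic subunit of the cyclic AMP-dependent kinase, Prkaca (1.44 ± 0.20), and Gcn1l1 (0.69 ± 0.21), which encodes the GCN1 protein bound by IMPACT. The call of Gcn1l1 ended without the mouse block (edgeR adjusted p = 0.383), with reads (0.142) and without mouse 3 (0.0516). Of 7 core Sm protein genes of splicing, Snrpb, Snrpd3, Snrpe, Snrpf and Snrpg fell, by 0.33 to 1.83 on the log2 scale, while Snrpd1 (0.31 ± 0.15) and Snrpd2 (-0.03 ± 0.14) did not pass the test. The call of Snrpf ended in 10 of 17 alternatives (adjusted p from 0.0646 to 0.890) and that of Snrpd3 in 7 (0.0569 to 0.480), both among them without the filter, without the mouse block, with reads and without mouse 2 (all by edgeR). With ERCC scaling Snrpb, Snrpd3, Snrpe and Snrpf were called higher instead.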

How the data were processed

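The authors deposited 3 tables for the 3 mice. They hold UMI counts and read counts per gene and well, which are whole numbers, and a transcripts table of estimated counts, which the authors deposited as UMI counts corrected for collisions, as judged from the values. Per the submitters' processing notes, BWA 0.7.10 and mm10 were used; annotation and strand handling are not given in the sources used here. UMI counts were the main values. In the transcripts table the wells of mouse 1 stood in another order and were matched by profile, and Mest was listed at 0 for mouse 1 there. Columns name wells, so barcodes shared between libraries could not be counted, and the 8 libraries of mouse 1 could not be separated.

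The wells of mice 1, 2 and 3 held 16682671, 5866174 and 18032562 UMIs, without spike-ins and mitochondrial genes. Wells with at least 1000 UMIs were aligned between mice with Seurat 5.3.0 anchors on 1500 variable genes of the odd-numbered autosomes, clustered (scanpy 1.11.5, 15 components, Leiden resolution 1.0) and ordered by diffusion pseudotime from the cluster highest in markers of undifferentiated spermatogonia. Clusters were named from fixed markers. 3 clusters, of 88, 45 and 65 wells, with median depths of 1919 to 2046.5 UMIs, stayed in no stage, as did 8 wells with over 0.5% of UMIs in spermatid markers, a limit set after the clusters were seen. Doublet calling with Scrublet marked 11 of 1448 cells, which were kept.

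UMIs were summed per mouse and stage where at least 10 cells remained, and 11044 genes that passed edgeR's filter were fitted with edgeR 4.0.16 (TMM, quasi-likelihood, R 4.3.3) with mouse as a block, since each animal gave every stage. Adjusted p-values are Benjamini-Hochberg over all genes tested. The mice are separate animals. With mouse as a block, differences in level between mice are taken out. P-values and SEs then rest on how far stage differences varied between mice, over all stages. The code was tested on simulated counts. Exact intervals and floors cover counting error only. The members and gene lists were chosen with earlier results of these data known. Named were all members, tested genes of their imprinted domains and the 3 genes most correlated with each member. Also named were the largest rises and falls among calls with the same sign in all mice. These were up to 6 each way for other imprinted genes and up to 4 for machinery and partners. Airn, Ppp1r9a, Zfp57, Igf2bp3 and the Sm protein genes were named outside this rule. Alternatives were DESeq2 1.42.0, RLE factors, no filter, no block, reads, transcripts rounded to whole numbers, each mouse left out, deeper wells, larger sums, other stagings and doublets removed. Scaling to ERCC spike-ins and keeping the spermatid-marker wells were added after the data were seen.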

Additional observations from a re-analysis of the deposited data

Results flagged for a closer look

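Member UMIs above 3 counts were also found in wells that the stage comparisons do not use. In an unnamed cluster of 88 wells led by Lrrc17, Clu and Sparc, with a median of 2046.5 UMIs per well, Gnas had 65 UMIs (206.9 CPM), Igf2r 20 (63.7 CPM) and Grb10 4, while Dlk1 had 1. In the cluster of 45 wells led by Vmn2r55, Gnas had 15 UMIs, all from mouse 3. In the cluster of 65 shallow wells that carried pachytene markers, Gnas had 22 UMIs, 19 of them from mouse 1, and Grb10 11. The 8 wells rich in spermatid markers held 28 Gnas and 5 Igf2r UMIs. The 472 wells with fewer than 1000 UMIs held 42 Gnas, 9 Igf2r, 8 Grb10 and 7 Dlk1 UMIs among 179485 in all.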

How the results depend on the processing

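Of 118 alternative values of the members' log2 differences between stages 12 and 1, 97 kept their sign and moved by less than the spread between mice, as did 79 of 94 peak stages (the same stage), and 34 of 34 counts for the imprint machinery stayed within 1.5 times. The difference of Grb10 was near 0 and changed sign without the filter on low counts (0.21), with reads (0.067), with sums of at least 20 cells (0.0082), with stages from even-numbered autosomes (0.28), without Scrublet doublets (0.081) and with ERCC scaling (1.43), and leaving out each mouse gave -0.25 to 0.038. That of Peg3 changed sign without the filter (0.021), with wells of at least 2000 UMIs (0.21), without alignment of mice (0.15) and with ERCC scaling (1.26). Dlk1 moved to -6.31 with reads and -3.34 with ERCC scaling. ERCC scaling also moved Gnas to -0.48, Igf2r to -2.63, Mest to -4.03 and Impact to -1.37. Impact further moved to -3.09 with DESeq2, -2.57 without the filter and -2.61 without alignment, with -3.08 to -2.74 when each mouse was left out. Without alignment no stage had enough cells of mouse 1, so mice 2 and 3 alone gave that value. The causes were not tested.

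Without the filter, other imprinted genes gave 16 higher and 20 lower of 53, beside 25.7% and 25.8% of all genes. With ERCC scaling they gave 14 and 7 of 26, and partner genes 12 and 6 of 24. All genes gave 63.4% and 19.4% there. Without the mouse as a block 2 of the 24 partner genes were higher, beside 28.3% of all genes. Leaving out the block changed no other count by over 1.5 times. Peak stages moved for Dlk1 to stage 1 with reads (1 to 2 when each mouse was left out), for Gnas to stage 8 without alignment, for Igf2r to 5 to 8 and for Impact to 1 to 7 when each mouse was left out, for Mest to stage 1 with deeper wells, with even-numbered autosomes and without doublets, and for Peg3 to stage 6 with reads and stage 5 with deeper wells, with even-numbered autosomes and with Leiden resolution 0.6 (4 to 5 when each mouse was left out). Depth limits stages 5 to 7 most, where 3 counts over the mice stand for 3.59 to 6.39 CPM and Mest, with at most 1 UMI a stage, lay below it.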
